A study of Mus musculus with 2 samples.

Results

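Cortical interneurons of the medial ganglionic eminence (MGE) that carried no *Sst* transcript were examined in single-cell RNA libraries from the cortex of 2 mouse embryos at E16.5. Transcripts were counted by unique molecular identifiers (UMIs), short tags that let copies of 1 molecule be counted once. Kept barcodes showed 1000 or more genes and drew no more than 10% of their UMIs from mitochondrial genes. Members were chosen by the UMIs of 7 genes, whose levels are therefore no finding here. A member had at least 5 UMIs of *Nxph1*, at least 5 of *Erbb4*, at least 1 of *Gad1* and *Gad2* together, none of *Sst* and at most 3 of *Neurod2* and *Neurod6* together. Of the 22347 kept barcodes 855 met this rule. They were 452 of 10879 in embryo 4, which is 4.15%, with a Clopper-Pearson 95% interval from 3.79% to 4.55%. In embryo 5 they were 403 of 11468, which is 3.51%, with limits of 3.18% and 3.87%. The intervals cover counting error only.

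Both embryos were wild type (WT) at day E16.5 and served as controls of an *Eomes*-Cre/EomesMllt3 line, so the data hold 1 genotype and no treatment, and each library came from 1 animal. The labels give the tissue as brain hemispheres, from which the cortex was dissociated with papain. The deposited matrices held 12825 barcodes with 124318613 UMIs in embryo 4 and 12289 barcodes with 117679925 UMIs in embryo 5. No barcode was a member in both libraries, and 46 barcode sequences occurred in both. All comparisons below are between groups of cells of the same 2 embryos, with the UMIs of a group summed within each embryo, so that n = 2 throughout. The fit estimated the spread over the sums of 3 groups. It drew each gene's spread toward that of other genes (8.665 prior against 3 residual degrees of freedom). A p-value therefore does not measure the spread of 1 gene between these 2 animals alone.

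Interneurons of the MGE reach the cortex by tangential migration. The transcription factor *Lhx6* is set up in them as they leave the cell cycle, and *Sox6*, *Satb1* and *Maf* act after it in the maturation of the somatostatin and parvalbumin branches. Neuregulins acting on the receptor ErbB4 and the chemokine CXCL12 acting on CXCR4 and ACKR3 guide the cells along their streams. Parvalbumin itself appears only after birth, so at this stage the later parvalbumin cells have to be sought among MGE cells by other genes. *Pvalb* had no UMI in any member.

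The members were compared with 3 groups cut from the same barcodes. MGE barcodes with 1 to 4 *Sst* UMIs numbered 142 and 138 in embryos 4 and 5. Those with at least 5 *Sst* UMIs, called *Sst*-high, numbered 144 and 150. Barcodes of the caudal ganglionic eminence (CGE) type, with at least 5 UMIs of *Adarb2* and of *Erbb4*, fewer than 5 of *Nxph1* and none of *Sst*, numbered 252 and 255. The median member held 5980 and 6215 UMIs, the median *Sst*-high barcode 9087.5 and 8088, and the median CGE barcode 6531.5 and 6309. Because a barcode with few UMIs is more likely to show no *Sst*, the absence of an *Sst* UMI was not taken as absence of the transcript.

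Genes that the rule had not used were described first. *Maf* and *Ackr3* are markers of the label, chosen with earlier results of these data known. The rule also excluded the excitatory neurons shown here, so these levels are no test of the label. Neither gene passed the test against *Sst*-high cells given below. Levels are given as CPM, the UMIs of a gene per 1000000 UMIs of the group's sum. *Maf* stood at 605 CPM in embryo 4 and 673 CPM in embryo 5, and *Ackr3* at 294 and 284 CPM. *Maf* was seen in 84.7% and 87.3% of the members, *Ackr3* in 71.0% and 70.5%, and *Lhx6* in 66.2% and 65.3%. In excitatory neurons of the same libraries, whose median barcode held 12116 and 10596 UMIs, *Maf* was seen in 2.48% and 1.34%, *Ackr3* in 8.46% and 8.49% and *Lhx6* in 0.917% and 0.432%. After each barcode was thinned to 3000 UMIs the members' shares were 73.6% and 76.6% for *Maf*, 55.1% and 55.4% for *Ackr3* and 44.9% and 45.7% for *Lhx6*. *Maf* and *Ackr3* were seen together in 305 and 274 members, and neither was seen in 53 and 41.

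**Figure D1:**
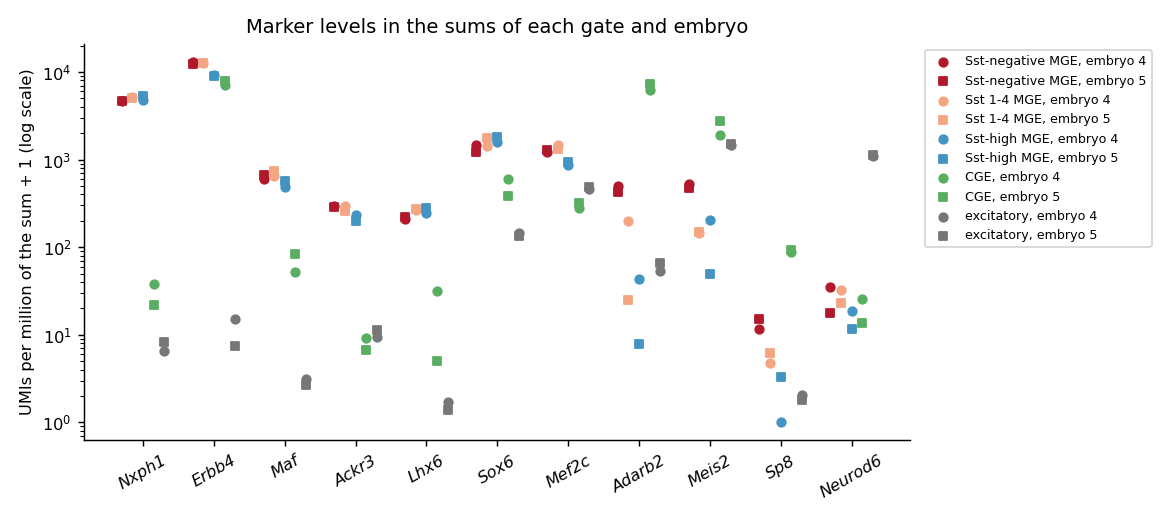
Level of 11 marker genes, as CPM plus 1 on a log axis, in the sum of each group and embryo (circles, embryo 4, and squares, embryo 5). The 3 MGE groups lie close together for *Maf*, *Ackr3*, *Lhx6* and *Sox6* and above the CGE and excitatory groups, and the members lie above the other MGE groups for *Adarb2*, *Meis2* and *Sp8*.

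The 250 bases before the annotated start are shown for 3 genes whose levels set the members apart, *Ackr3* and *Nxph2* from CGE cells and *Npy* from both other groups. They are RefSeq sequence of GRCm38.p6, which is the mm10 build of the deposited counts, and capitals mark matches to TATAAAA or to the half-site TGCTGA that Maf factors can bind. *Ackr3* starts on the plus strand and its window is chr1:90203730-90203979. *Nxph2* has chr2:23320996-23321245 and *Npy* chr6:49822460-49822709, both on the plus strand.
Ackr3: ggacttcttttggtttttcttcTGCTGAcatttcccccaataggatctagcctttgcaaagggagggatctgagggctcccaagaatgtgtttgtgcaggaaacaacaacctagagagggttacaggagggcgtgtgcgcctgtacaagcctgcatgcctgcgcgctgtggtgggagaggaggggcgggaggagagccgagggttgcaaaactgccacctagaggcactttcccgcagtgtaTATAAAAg
Nxph2: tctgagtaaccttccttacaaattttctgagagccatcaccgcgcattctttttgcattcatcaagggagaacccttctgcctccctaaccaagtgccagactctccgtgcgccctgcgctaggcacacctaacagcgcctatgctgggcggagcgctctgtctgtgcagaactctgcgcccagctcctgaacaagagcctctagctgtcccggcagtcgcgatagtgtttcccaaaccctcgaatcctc
Npy: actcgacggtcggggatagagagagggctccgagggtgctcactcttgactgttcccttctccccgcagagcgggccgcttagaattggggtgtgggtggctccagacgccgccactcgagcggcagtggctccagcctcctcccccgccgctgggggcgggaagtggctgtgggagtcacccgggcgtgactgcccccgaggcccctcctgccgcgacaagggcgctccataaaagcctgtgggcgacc
Both strands were searched for TATAAAA and for the half-site. *Ackr3* held TATAAAA 8 bases and TGCTGA 228 bases before its start, and *Nxph2* and *Npy* held neither. TATAAAA occurred in 4.98% and TGCTGA in 16.1% of 32851 promoter windows of this length, so a match to the half-site is common and describes letters only. The windows held 54.0%, 55.6% and 69.2% of G and C, beside a median of 52.4%.

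Among the 11 MGE lineage transcription factors, *Sox6* was seen in 90.5% and 88.1% of the members and *Mef2c*, a factor of the parvalbumin branch, in 93.4% and 94.0%. *Nkx2-1*, which specifies the MGE and is switched off in interneurons bound for the cortex, was seen in 3.98% and 0.744%. At least 5 UMIs of the 6 progenitor markers were held by 53 members of embryo 4 and 42 of embryo 5 (11.7% and 10.4%), and at least 5 of the 4 erythroid genes by 34 and 117 (7.52% and 29.0%). For the 7 excitatory markers the numbers were 8 and 2, for cycling markers 14 and 13, for oligodendrocyte precursor markers 3 and 1, for vascular markers 1 and 1 and for microglial markers 0 and 0. Haemoglobin transcripts differed between the sums, with 918 and 519 CPM over the 4 erythroid genes in the members, 216 and 4473 CPM in the *Sst*-high sums and 6296 and 540 CPM in the CGE sums. Their part in the results was not tested apart from other markers. The stricter doublet limits described below also left out barcodes with at least 5 erythroid UMIs. Under these limits 368 and 254 members and 106 and 84 *Sst*-high barcodes remained.

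A minority of the members carried *Adarb2* or *Meis2*, which serve as markers of other ganglionic eminences. *Adarb2*, a marker of CGE interneurons, reached 5 UMIs in 31 and 22 members. *Meis2*, a homeodomain factor of the lateral eminence and the striatum, reached 5 UMIs in 45 and 29 further members whose *Adarb2* stayed at 4 or less. Over both embryos these were 53 (6.20%) and 74 (8.65%) of the 855. The remaining members were 510 barcodes (59.6%) with and 218 (25.5%) without an *Lhx6* UMI.

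The members with *Adarb2* or *Meis2* stood apart in the genes of the label as well. *Ackr3* measured 65.2 and 33.6 CPM in the *Adarb2* members and 147 and 120 CPM in the *Meis2* members. It measured 360 and 339 CPM in the members with an *Lhx6* UMI, and 358 and 316 CPM in those without one. *Maf* followed the same order, with 174 and 192 CPM, 260 and 254 CPM, 774 and 788 CPM, and 663 and 775 CPM in these 4 sets. The members without an *Lhx6* UMI were therefore near those with one in *Maf* and *Ackr3*, and they were shallower, with medians of 4102 and 5264 against 6121 and 6295 UMIs. The *Meis2* members were the deepest, with medians of 12804 and 11602 UMIs, and whether some of them were doublets was not tested. These sets were cut on the data after their values had been seen and no test was run on them.

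Genes were also ranked by their spread over the members. With every barcode thinned to 3000 UMIs, 4691 genes had a mean of at least 0.1 UMI, and their median ratio of variance to mean was 1.09 and 1.08. *Adarb2* led the genes with ratios of 37.2 and 36.6, and *Meis2* had ratios of 8.86 and 11. The protocadherin *Pcdh9* (12.4 and 15.2), the netrin receptor *Dcc* (20.4 and 10.5) and the ephrin receptor *Epha5* (11.4 and 10.2) were also among the leading genes. Across the thinned members *Maf* correlated with *Ackr3* at 0.36 and 0.31 (Pearson's r over 401 and 368 barcodes), which is a description, since the barcodes of an embryo share 1 library.

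Against *Sst*-high MGE cells, the members differed in 448 of 11172 genes tested (4.01%) by edgeR's quasi-likelihood test at an adjusted p under 0.05. They were higher in 164 genes (1.47%) and lower in 284 (2.54%), of which *Adarb2* and *Sst* themselves belonged to the rules of the groups. With the embryo as a replicate block the counts were 348 and 450, which held all of the 164 and 284. The list counts below are to be read beside the shares of 1.47% and 2.54%. The members were lower in peptide and synaptic genes of the somatostatin branch, and higher in a set that mixed genes of the *Adarb2* and *Meis2* minority with genes of the main body of members.

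*Npy*, the gene of neuropeptide Y, which many somatostatin interneurons release, measured 72.0 and 66.5 CPM in the members, 132 and 175 CPM in MGE cells with 1 to 4 *Sst* UMIs and 690 and 877 CPM in *Sst*-high cells. Both sums of the members lay below all sums of the other MGE groups, which for *Sst*-high cells the choice of the gene had favoured. The log2 difference from *Sst*-high cells was -3.51 ± 0.17 (SE, adjusted p = 6.56e-07). *Prkcq*, which encodes protein kinase C theta, measured 4.14 and 6.87 CPM against 67.2 and 95 CPM, a log2 difference of -3.90 ± 0.30 (adjusted p = 5.33e-05). *Cdh9*, a classical cadherin, measured 2.87 and 3.25 CPM against 28.6 and 41.1 CPM (-3.50 ± 0.37 on the log2 scale, adjusted p = 0.000476). These genes were low but not absent in the members, where *Npy* had 226 and 184 UMIs and *Cdh9* 9 and 9.

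Of the 12 genes of the list of neuropeptides and *Sst*-lineage genes, 6 were tested beside *Sst*, and 5 of these were lower and none higher in the members. The other 4 were *Reln*, which encodes the secreted matrix protein reelin (-1.37 ± 0.14 on the log2 scale), *Elfn1*, a synaptic adhesion protein of somatostatin cells (-1.55 ± 0.14), the calcium binding protein *Calb1* (-1.16 ± 0.16) and the NMDA receptor subunit *Grin3a* (-2.21 ± 0.28). The list's median was -1.85, beside 0.01 over all genes tested. *Calb1* lost its call under stricter doublet limits. These left out barcodes above the 95th percentile of UMIs of their embryo. They also left out barcodes with 5 or more UMIs of progenitor, excitatory, vascular, microglial or erythroid markers.

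Receptor and channel genes leaned the same way, though several of their calls depended on the setting. Over all genes tested 2.54% were lower and 1.47% higher. Of 23 GABA and glutamate receptor genes 5 were lower and 1 was higher. *Grik1*, a kainate receptor subunit, measured 271 and 363 CPM against 806 and 1218 CPM in *Sst*-high cells (-1.69 ± 0.21, adjusted p = 0.00108). *Gabra2*, *Gabra3*, *Gria3* and *Gabrg1* were the other 4, with log2 differences from -2.60 to -0.80. *Gabra3* lost its call under 4 and *Gria3* under 3 of 17 alternatives, and *Gabrg1* under 1 of 15. *Gabrg3*, the gamma 3 subunit of the GABA-A receptor, was the 1 that was higher, at 295 and 320 CPM against 133 and 161 CPM (1.05 ± 0.13, adjusted p = 0.00117). Of 20 ion channel and chloride transporter genes 6 were lower and none higher. Among them, *Kcnd2*, a subunit of A-type potassium channels (-0.92 ± 0.13), and *Cacna2d3*, a calcium channel accessory subunit (-1.33 ± 0.15), kept their calls under all 17 alternatives. *Slc12a5* lost its call under 8 of them, with a difference of -0.08 after thinning to 3000 UMIs. *Cacna2d2* lost its call under 5, *Cacna1d* under 4 and *Scn2a* under 1. The list medians were -0.26 for receptors and -0.27 for channels. Of 16 synaptic adhesion genes 3 were lower, among them *Cntnap2* (-1.47 ± 0.25) and *Lrrtm4* (-1.43 ± 0.17), and none was higher.

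The remaining genes among the 10 with the largest decrease were *L3mbtl4*, *Col25a1*, a transmembrane collagen, the metabotropic glutamate receptor *Grm7*, *Nebl*, *Gabrg1* and *Mgat4c*, with log2 differences from -2.98 to -2.53. *Grm7* measured 38.9 and 26.0 CPM in the members and 191 and 221 CPM in *Sst*-high cells. *Mgat4c* was less even, at 12.7 and 5.06 CPM against 86.5 and 16.7 CPM, and it lost its call under 6 of 17 alternatives, with adjusted p from 0.0503 to 0.249.

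**Figure D2:**
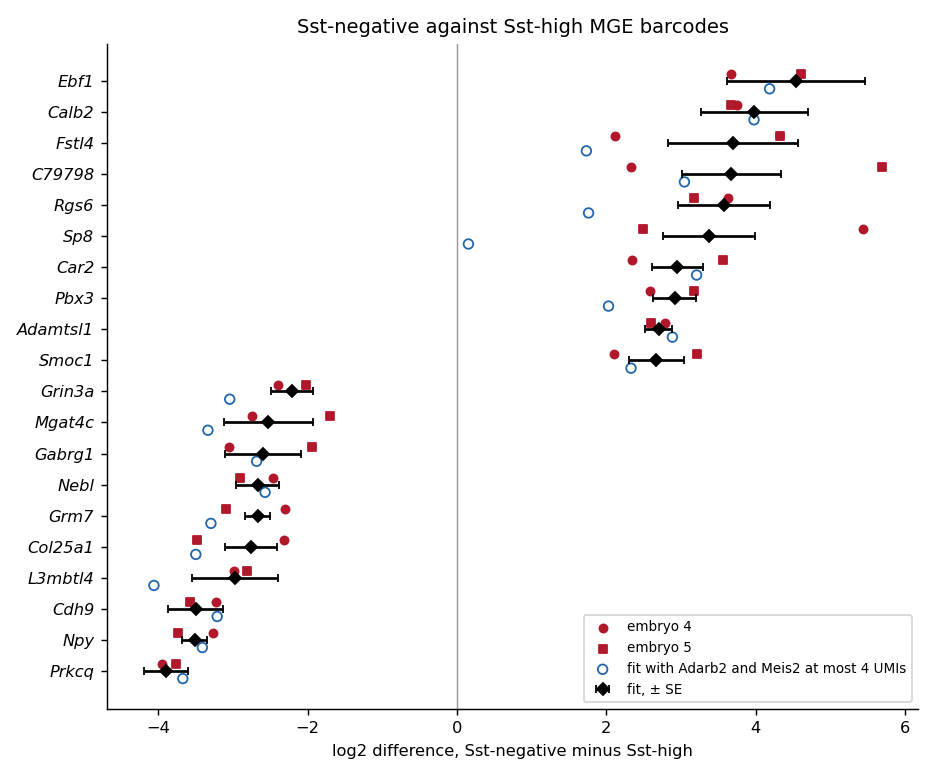
Log2 difference between the members and *Sst*-high MGE cells for the 10 genes with the largest increase and the 10 with the largest decrease. Diamonds give the fit with its SE, red symbols the 2 embryos and open circles the fit over MGE cells with at most 4 UMIs of *Adarb2* and of *Meis2*, where *Sp8* moves to 0.15 and *Car2* and *Adamtsl1* stay at 3.21 and 2.89.

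Among MGE lineage transcription factors, 3 of 11 were lower and 2 higher in the members. Among the lower ones, *Satb1*, which is needed by somatostatin interneurons, differed by a log2 difference of -1.04 ± 0.18 and *Npas1* by -0.82 ± 0.16. *Npas1* lost its call under 4 of 17 alternatives. *Zeb2*, which directs MGE cells to the cortex, was higher at 2081 and 2422 CPM against 1414 and 1357 CPM (0.69 ± 0.15, adjusted p = 0.0224), and so was *Etv1* (1.10 ± 0.21). *Zeb2* lost its call under 2 and *Etv1* under 3 of the 17. *Maf* (0.27 ± 0.18), *Lhx6* (-0.31 ± 0.28), *Sox6* (-0.35 ± 0.18) and *Mef2c* (0.47 ± 0.13, adjusted p = 0.0680) did not pass the test. *Mef2c* passed it under 10 of the 17 alternatives, among them the replicate block (0.48, adjusted p = 0.0113) and the fit without the *Adarb2* and *Meis2* barcodes (0.69, adjusted p = 0.00614).

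*Ackr3*, one of the genes that name these cells, measured 294 and 284 CPM in the members, 292 and 255 CPM in MGE cells with 1 to 4 *Sst* UMIs and 232 and 196 CPM in *Sst*-high cells. Both sums of the members lay above both *Sst*-high sums, and the log2 difference of 0.42 ± 0.12 missed the threshold (adjusted p = 0.0772). *Ackr3* passed it under 5 of 17 alternatives, among them the replicate block (0.42, adjusted p = 0.0222), thinned barcodes (0.68, adjusted p = 0.0150) and the fit without barcodes of at least 5 *Adarb2* or *Meis2* UMIs (0.63, adjusted p = 0.0132). *Cxcr4*, the signalling receptor for the same chemokine, measured 43.7 and 29.6 CPM against 35.0 and 22.8 CPM, and these ranges overlapped (0.33 ± 0.25). Of 22 chemokine and migration receptor genes tested, 4 were higher in the members and none lower. They were the ephrin receptors *Epha5* (5125 and 4787 CPM against 3421 and 2667 CPM, 0.69 ± 0.14, adjusted p = 0.0188) and *Epha4* (1.56 ± 0.29) and the semaphorin receptors *Nrp1* (114 and 85.7 CPM against 47.9 and 42.6 CPM, 1.13 ± 0.19, adjusted p = 0.00661) and *Nrp2* (0.77 ± 0.18). The list's median was 0.37. *Nrp2* lost its call under 4 alternatives (no *Neurod2* or *Neurod6* UMI, stricter doublet limits, thinned barcodes and DESeq2) and turned to -0.01 against cells with at least 20 *Sst* UMIs.

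The 10 genes with the largest increase were *Ebf1*, *Calb2*, *Fstl4*, *C79798*, *Rgs6*, *Sp8*, *Car2*, *Pbx3*, *Adamtsl1* and *Smoc1*. *Car2*, which encodes carbonic anhydrase 2, measured 41.4 and 57.5 CPM in the members and 7.86 and 4.56 CPM in *Sst*-high cells (2.95 ± 0.34, adjusted p = 0.000772). *Adamtsl1*, which encodes a secreted ADAMTS-like protein, measured 95.6 and 99.4 CPM against 13.6 and 16 CPM (2.71 ± 0.18, adjusted p = 1.64e-05). *Smoc1*, a secreted modulator of BMP signals, measured 41.1 and 59.3 CPM against 9.29 and 6.08 CPM (2.67 ± 0.37, adjusted p = 0.00230). Within embryos the log2 differences of these 3 genes ran from 2.10 to 3.57. Their choice had required the same sign in both embryos, so the separation of their sums is not read. *Smoc1* was lower, at 29.7 and 25.5 CPM, in members with an *Lhx6* UMI and at most 4 of *Adarb2* and of *Meis2*.

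Other genes of this set rested on few barcodes. *Ebf1*, a factor of striatal projection neurons, had 38 and 120 UMIs in only 11 and 7 members, and 1 barcode held 60.5% and 37.5% of them. *Calb2*, which encodes calretinin, had 40 and 35 UMIs in 10 and 11 members. *Fstl4* had 42 and 183 UMIs in 13 and 11 members. For these genes the sums describe a handful of cells, and *Ebf1* and *Fstl4* lost their calls under the stricter doublet limits.

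The minority with at least 5 UMIs of *Adarb2* or *Meis2* was 16.8% and 12.7% of the members and held 27.5% and 20.2% of their UMIs. It held 90.9% and 97.4% of the members' *Sp8* UMIs, a zinc finger factor of the lateral and caudal eminences. It also held 70.8% and 75.1% of those of *Pbx3*, a homeodomain factor of olfactory and striatal lineages, 82.8% and 79.5% of *Rgs6*, 76.4% and 70.7% of *Zic1* and 85.7% and 94.3% of the progenitor factor *Pax6*. Its shares were 54.8% and 49.7% for *Epha4* and 48.8% and 62.8% for *Smoc1*. In contrast it held 11.5% and 5.03% of the *Car2* UMIs, 25.3% and 27.3% of *Adamtsl1*, 15.7% and 14.3% of *Zeb2*, 14.9% and 10.8% of *Epha5* and 14.9% and 6.22% of *Gabrg3*. *Car2*, *Zeb2*, *Epha5* and *Gabrg3* thus lay below the minority's share of all UMIs in both embryos, as did *Maf*, *Ackr3*, *Lhx6* and *Nxph2*.

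**Figure D3:**
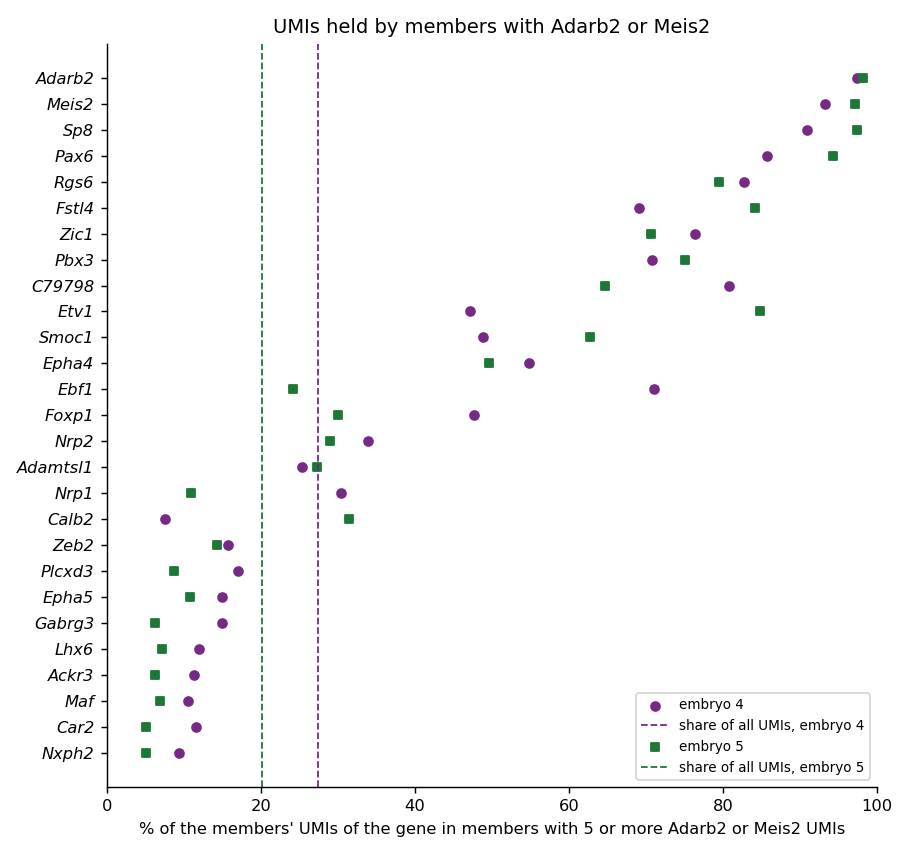
Share of the members' UMIs of a gene, in percent, that lay in members with at least 5 UMIs of *Adarb2* or *Meis2*, for the named or listed genes that were higher than in *Sst*-high cells and for 5 further genes (circles, embryo 4, and squares, embryo 5). Dashed lines give the share of all UMIs in these members, 27.5% and 20.2%; *Sp8*, *Pax6* and *Rgs6* lie far to the right of them and *Car2*, *Gabrg3* and *Epha5* to the left.

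With these barcodes left out of both MGE groups, an alternative chosen after the data had been seen, 190 genes were higher and 338 lower, and 108 of the 164 higher and 251 of the 284 lower genes kept their call. *Car2* (3.21, adjusted p = 8.49e-05), *Adamtsl1* (2.89), *Smoc1* (2.33) and *Calb2* (3.98) stayed higher, as did *Epha5* (0.90), *Nrp1* (1.19), *Gabrg3* (1.28), *Zeb2* (0.84) and *Plcxd3* (1.02), a gene of the parvalbumin branch. *Pbx3* stayed higher at 2.03 and *Epha4* at 1.73. *Sp8* fell to 0.15 and *Etv1* to 0.11 without a call, *Meis2* itself to 0.43 and *Zic1* to 1.06, and *Pax6* turned to -0.35. *Ackr3* (0.63) and *Mef2c* (0.69) passed the test here. The calls of all 10 genes with the largest decrease remained.

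Of 7 tested genes of the lateral eminence and striatum, 4 were higher in the members than in *Sst*-high cells (*Ebf1*, *Pbx3*, *Meis2*, *Foxp1*) and none lower, and the median was 2.42. *Foxp1* and *Meis2* lost their calls without the *Adarb2* and *Meis2* barcodes and *Pbx3* kept its call, while *Ebf1* stayed at 4.19 with an adjusted p of 0.0539. Their summed level over 9 genes was 1019 and 1018 CPM in the members, 390 and 197 CPM in *Sst*-high cells and 4420 and 6734 CPM in CGE cells. Excitatory neurons held 2346 and 2320 CPM, so in these data the list is not confined to an eminence. Of 5 tested CGE markers 2 were higher (*Calb2*, *Sp8*) and 1 was lower, *Nr2f2*, an orphan nuclear receptor that is also found in part of the somatostatin lineage (59.6 and 45.2 CPM against 156 and 98.8 CPM, -1.29 ± 0.20). *Vip* had no UMI in the members. None of the 7 genes of the list of *Dlx* and related homeobox genes and none of the 5 tested genes of GABA synthesis and transport passed the test. Of 5 tested genes of striatal and cholinergic MGE cells *Zic1* was higher (2.25 ± 0.27) and none lower. Of the markers of other cell types, none of the 5 excitatory, 4 erythroid, 2 microglial and 2 oligodendrocyte precursor genes tested passed in either comparison. Where no gene of a short list passed, this is no finding beside 4.01% and 6.35% called over all genes. The uncalled erythroid genes had medians of -1.66 against *Sst*-high and -2.39 against CGE cells. Of 5 progenitor genes *Pax6* was higher than in *Sst*-high cells (1.64 ± 0.33) and lower than in CGE cells. Of 7 tested genes of the parvalbumin branch, *Plcxd3* was higher (0.81 ± 0.19, adjusted p = 0.0401) and none was lower. *Plcxd3* lost its call under 6 of 17 alternatives, with differences from 0.48 to 0.78.

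None of the 8 DNA methylation genes tested differed from *Sst*-high cells by edgeR's test. Beside a share of 4.01% over all genes, this is no finding about the list. *Dnmt1*, the maintenance methyltransferase, measured 57.4 and 54.2 CPM in the members and 54.3 and 52.5 CPM in *Sst*-high cells, and *Dnmt3a*, a de novo methyltransferase, measured 71.4 and 66.9 CPM against 72.9 and 60.1 CPM. The demethylase genes *Tet1*, *Tet2* and *Tet3* had log2 differences from 0.20 to 0.36. Against CGE cells *Tet2* was higher, at 153 and 123 CPM against 93.2 and 91.6 CPM (0.59 ± 0.14, adjusted p = 0.0253). It was the 1 gene of the 8 called there, where 6.35% of all genes were called. *Tet2* lost its call with DESeq2 (0.58, adjusted p = 0.144).

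MGE cells with 1 to 4 *Sst* UMIs took no part in the fit. In the called genes they lay mostly between the other 2 MGE groups. Beside the 2 rule genes, 163 genes were called higher in the members, and the mean level in the middle group lay between the others for 145 of them (89.0%). For the 283 genes called lower this held for 238 (84.1%). By embryo the numbers were 127 and 130 of 163 and 209 and 226 of 283. The genes had been chosen for a difference between the other 2 groups, which by itself favours a middle place. No share was taken over genes without a call, so these counts are a description. *Npy*, *Reln* and *Elfn1* rose from group to group in both embryos. *Reln* measured 236 and 239 CPM, then 404 and 414 CPM, then 539 and 674 CPM. *Car2* fell from group to group in embryo 5 only, with 41.4, 43.3 and 7.86 CPM in embryo 4 and 57.5, 28 and 4.56 CPM in embryo 5. A low *Sst* count can be a middle level or a deep level seen by few UMIs, and these cannot be told apart here.

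**Figure D4:**
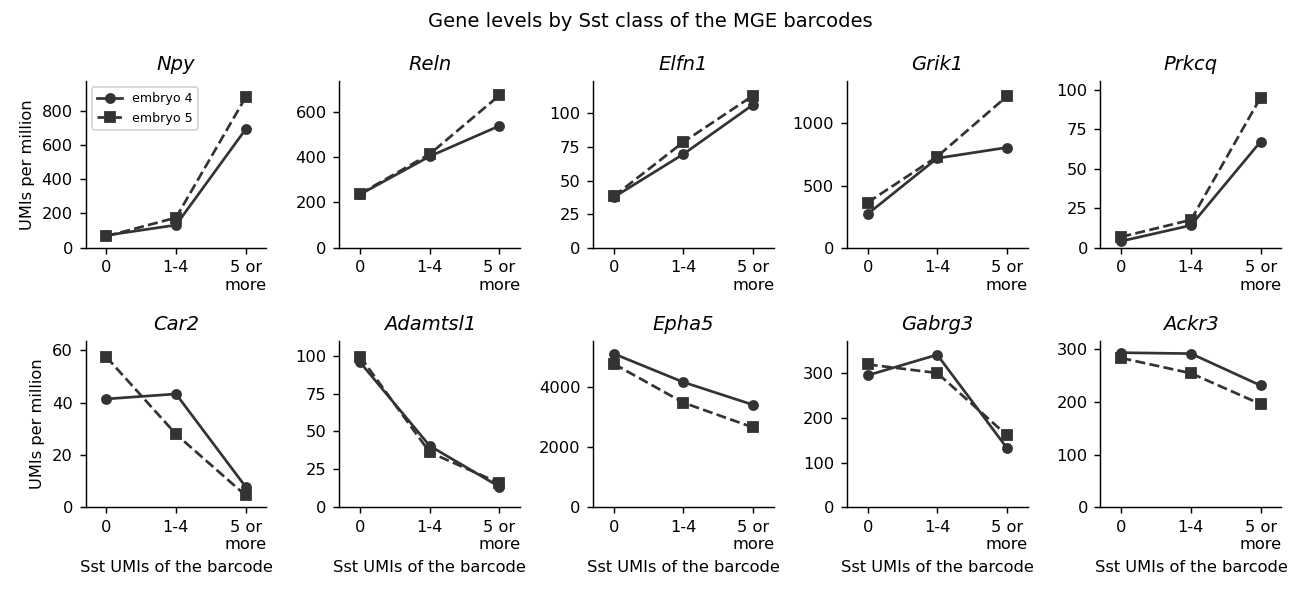
Level in CPM of 10 genes in MGE cells with 0, 1 to 4 and at least 5 *Sst* UMIs (solid line, embryo 4, and dashed line, embryo 5). *Npy*, *Reln*, *Elfn1*, *Grik1* and *Prkcq* are lowest in cells without an *Sst* UMI, and *Adamtsl1* and *Epha5* are highest there in both embryos.

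Against the barcodes of the CGE type, which also carry *Erbb4* and no *Sst*, the members differed in 709 of 11172 genes (6.35%). Of these, 312 (2.79%) were higher and 397 (3.55%) lower. The rule genes *Nxph1*, *Erbb4* and *Adarb2* are among them and are not read further. This comparison shares the members' sums with the former one, and list counts are to be read beside 2.79% and 3.55%. The CGE group was cut on *Adarb2*, which made up 6206 and 7358 CPM of its 6628 and 7745 CPM over 7 CGE markers. It also held 4420 and 6734 CPM over 9 lateral eminence and striatal genes. How many of its barcodes belonged to another eminence was not tested. Differences from this group are therefore not read as differences between eminences. The members were higher in MGE transcription factors, in the chemokine receptors and in AMPA and metabotropic glutamate receptors, and lower in CGE and lateral eminence factors and in receptors of the Slit and netrin systems.

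Of the 11 MGE factors 7 were higher and none lower, with a list median of 1.37. *Maf* measured 605 and 673 CPM against 50.9 and 82.4 CPM (3.27 ± 0.21, adjusted p = 1.44e-06) and *Lhx6* 208 and 218 CPM against 30.9 and 4.03 CPM (3.59 ± 0.38). *Mef2c* (2.08 ± 0.14), *Sox6* (1.46 ± 0.19), *Satb1* (1.37 ± 0.20) and *Zeb2* (1.05 ± 0.15) were also among them. *Satb1* was thus higher than in CGE cells and lower than in *Sst*-high cells.

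*Ackr3* showed one of the widest steps, with 294 and 284 CPM in the members against 8.13 and 5.76 CPM in CGE cells (5.37 ± 0.18, adjusted p = 1.55e-08). *Cxcr4* measured 43.7 and 29.6 CPM against 10.3 and 11 CPM (1.80 ± 0.28, adjusted p = 0.00164). Of the 22 chemokine and migration genes 4 were higher, the 2 others being *Epha5* (1.08 ± 0.14) and the neuregulin gene *Nrg3* (0.63), and 6 were lower. The lower ones were the netrin receptor *Dcc* (-1.52 ± 0.22), the Slit receptors *Robo1* (356 and 246 CPM against 1084 and 1054 CPM, -1.82 ± 0.16, adjusted p = 1.73e-05) and *Robo2* (-1.07 ± 0.20), the ligand *Slit1* (-1.91 ± 0.25), *Ephb1* (-1.65) and *Nrp2* (-1.40 ± 0.15). *Nrp2* was higher in the members than in *Sst*-high cells and lower than in CGE cells.

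The 10 genes with the largest increase were *Mkx*, *Nxph2*, *Thbs1*, *Npy*, *Ackr3*, *Fam135b*, *Efcab6*, *Dpp10*, *Cntnap3* and *Cacng3*. Several of them were not particular to the members among MGE cells. Beside *Sst*-high cells the members were lower in *Cntnap3* (-1.20 ± 0.13) and *Cacng3* (-0.67 ± 0.16) by edgeR's test. *Fam135b*, *Efcab6* and *Dpp10* did not pass that test. *Mkx*, a homeobox gene, had 117 and 89 UMIs in the members and none in either CGE sum, so that it was at least 41.6-fold higher against a floor of 3 counts over both CGE sums. *Nxph2*, which encodes a second neurexophilin, measured 229 and 287 CPM against 0.542 and 1.15 CPM (8.18 ± 0.38, adjusted p = 1.22e-07), and the CGE sums rest on 1 and 2 UMIs. *Thbs1*, which encodes thrombospondin 1, measured 42.4 and 42.6 CPM against 0.542 and 0.576 CPM. *Npy* measured 72.0 and 66.5 CPM against 2.17 and 0.576 CPM (5.58 ± 0.35), so that the members were low in *Npy* beside *Sst*-high cells and high beside CGE cells. *Nxph2* was seen in 47.1% and 53.6% of the members and in 0.397% and 0.392% of CGE cells.

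Glutamate receptor genes separated the members from the CGE group. *Gria1* measured 2626 and 2833 CPM in the members against 474 and 477 CPM in CGE cells (2.53 ± 0.15, adjusted p = 6.29e-07), and *Gria4* 2485 and 2340 CPM against 261 and 309 CPM (3.09 ± 0.15). The metabotropic receptor gene *Grm5* measured 852 and 835 CPM against 74.2 and 53.6 CPM (3.73 ± 0.18). With *Gabrg3*, *Grik1* and *Grik2*, 6 of 23 receptor genes were higher and none was lower. *Cacng3*, an auxiliary subunit of AMPA receptors, was higher by a log2 difference of 4.20 ± 0.27 and *Dpp10*, an auxiliary subunit of A-type potassium channels, by 4.58 ± 0.26. The potassium channel gene *Kcnc2*, which later serves fast spiking in parvalbumin cells, was higher at 529 and 567 CPM against 133 and 92.2 CPM (2.29 ± 0.16, adjusted p = 2.45e-06). *Kcnc2* was not called against *Sst*-high cells, so it does not set the members apart among MGE cells.

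**Figure D5:**
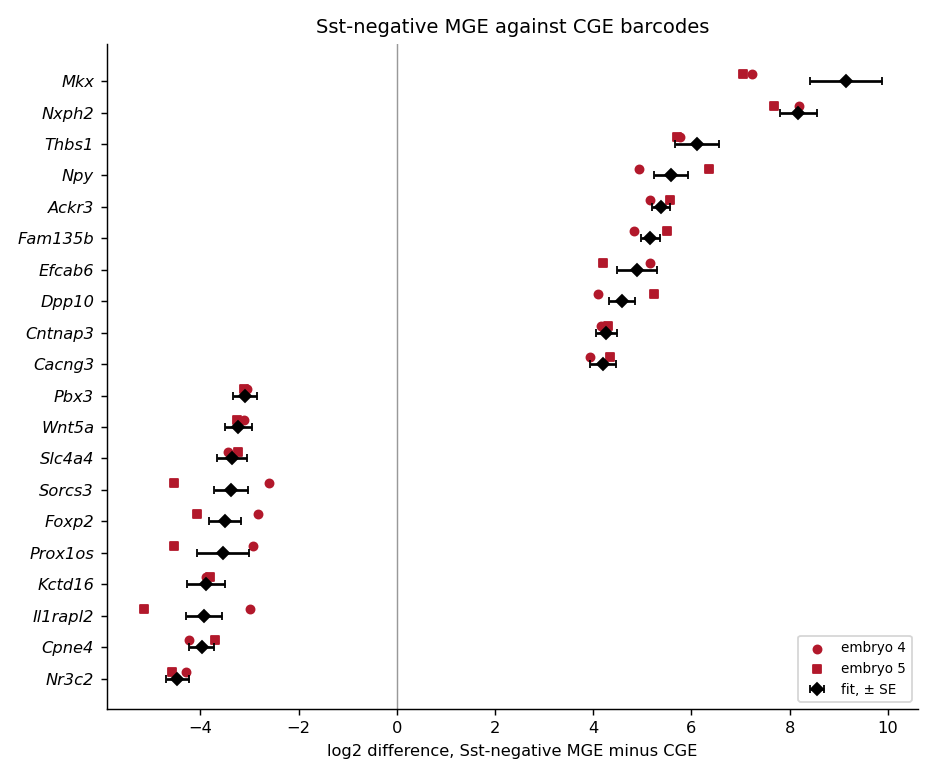
Log2 difference between the members and CGE cells for the 10 genes with the largest increase and the 10 with the largest decrease (diamonds, fit with SE, and red symbols, the 2 embryos). *Mkx* had no UMI in CGE cells, so its plotted values depend on the prior count. The step of *Ackr3* is 5.37 and that of *Nr3c2* -4.47.

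The 10 genes with the largest decrease were *Nr3c2*, *Cpne4*, *Il1rapl2*, *Kctd16*, *Prox1os*, *Foxp2*, *Sorcs3*, *Slc4a4*, *Wnt5a* and *Pbx3*, with log2 differences from -4.47 to -3.10. *Nr3c2*, the mineralocorticoid receptor gene, measured 8.29 and 7.59 CPM in the members against 170 and 188 CPM (-4.47 ± 0.23, adjusted p = 2.85e-07). Of 5 tested CGE markers 4 were lower, *Sp8* (-2.85 ± 0.23), *Prox1*, *Htr3a* and *Nr2f2*, and of 7 lateral eminence and striatal genes 5 were lower and none higher. With the *Adarb2* and *Meis2* barcodes left out, all 76 named or listed genes called here kept their calls, and the difference of *Sp8* was -6.49. Of the *Dlx* list 2 genes were higher, among them *Dlx1as* (0.91 ± 0.14), and 2 lower, *Dlx1* (-0.84 ± 0.11) and *Dlx6os1* (-0.81 ± 0.13). *Abat*, which encodes the enzyme that breaks down GABA, was lower (-0.98 ± 0.14).

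At the limits of the rule, the members with exactly 5 or 6 *Nxph1* UMIs were 32 barcodes in embryo 4 and 25 in embryo 5 in all, and those just outside, with 3 or 4, were 36 and 16. The members with exactly 5 *Nxph1* UMIs measured 451 and 372 CPM of *Maf*, and the barcodes with 4 measured 509 and 285 CPM. Barcodes with 1 *Sst* UMI, 77 and 57 in number and just outside the rule, measured 678 and 694 CPM of *Maf*, 311 and 252 CPM of *Ackr3* and 258 and 271 CPM of *Lhx6*.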

How the data were processed

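Single-cell RNA libraries (10x Genomics 3′ chemistry) of 2 E16.5 embryos were used. The authors aligned the reads to mm10 with Cell Ranger and deposited whole-number UMI counts, with no normalization, for each barcode and gene. The submitters' processing notes give version 7.0.0 and the matrix headers 7.1.0. No annotation of cell types by the authors was used, and groups were cut by UMI rules. The only doublet measure of the rule was the limit on *Neurod2* and *Neurod6*, and no doublet caller was run. UMI counts were summed per group and embryo. The sums of the members, the *Sst*-high and the CGE group were fitted with edgeR 4.0.16 (quasi-likelihood test, TMM, filterByExpr, R 4.3.3) without a block, with Benjamini-Hochberg adjustment over 11172 genes and a threshold of 0.05. An SE is the log2 difference divided by the square root of F. DESeq2 1.42.0 was an alternative.

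Same-numbered sums come from the same embryo. The correlations of their embryo differences were 0.14 (members and *Sst*-high), 0.23 (members and CGE) and 0.10 (*Sst*-high and CGE). Named genes were the 10 with the largest log2 difference in each direction and comparison, with an adjusted p under 0.05, the same sign in both embryos and at least 50 UMIs in the higher sums, and the members of the gene lists. Gene models without a symbol and mitochondrial, ribosomal and sex-linked genes were left out. Differences between groups in genes of their rules were not read. The members and the lists were chosen with earlier results of these data known. On simulated data for 10928 genes with 197 changed, the test recovered 76.6% of the changes for the *Sst*-high and 77.2% for the CGE comparison, with 3.82% and 6.75% of calls false. The simulated counts had the same dispersion for every gene, no embryo effect and changes of fixed sizes. These rates therefore need not hold for the real data. Some genes of the lists are not reported here.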

Additional observations from a re-analysis of the deposited data

How the results depend on the processing

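Against *Sst*-high cells, where 164 genes were higher and 284 lower, the counts depended on the setting. The higher genes numbered 105 among cells with an *Lhx6* UMI and at most 4 of *Adarb2*, 306 against cells with at least 20 *Sst* UMIs, 102 with barcodes thinned to 3000 UMIs, 475 with no filter on low counts, 348 with the replicate block and 87 with DESeq2. The lower genes numbered 178 against cells with at least 1 *Sst* UMI, 434 against cells with at least 20, 165 after thinning, 451 with no filter, 450 with the replicate block and 171 with DESeq2. Against CGE cells, 513 genes were higher and 871 lower with the *Adarb2* and *Meis2* barcodes left out, 489 and 603 with no filter, and 257 lower with DESeq2. The cause was not tested. *Nrp2* turned to -0.013 against cells with at least 20 *Sst* UMIs, and *Pax6* to -0.35 without the *Adarb2* and *Meis2* barcodes, both relative to *Sst*-high cells.

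Of the 53 named or listed genes called against *Sst*-high cells, 13 of the 52 that could be refitted lost their call under the stricter doublet limits and 12 of 53 with DESeq2. The stricter limits also left out barcodes with at least 5 erythroid UMIs, so the 13 losses cannot be assigned to doublets. Of the 76 called against CGE cells at most 9 lost it, with DESeq2. The replicate block changed none of these calls. Leaving out an embryo left no residual degrees of freedom, so no count of calls could be given. The difference within embryo 5 alone lay over 1 SE from the fit for 23 of the 53 and 37 of the 76 genes, and within embryo 4 alone for 21 and 35. The sign within each embryo is not read, since the choice of the genes with the largest differences had required it. The rule gave 855 members, and between 671 and 984 under other limits. The members were shallower than the *Sst*-high cells, which limits what a missing *Sst* UMI can show.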
